A study of Mus musculus with 16 samples.

Results

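The regions described here carried H3K4me3 peaks in Dicer-deleted mesenchymal stem cells (MSCs) and none in Dicer-intact ones. They were found by merging the overlapping or touching peaks of the 4 H3K4me3 libraries on chromosomes 1 to 19. A merged region was kept when both KO libraries listed a peak in it and neither WT library did. This left 1553 of 24560 regions (6.32%), called KO-only regions below. The cells were monoclonal immortalized murine MSC lines of strain C57BL/6, with the genotype Dicer -/- (KO) or Dicer f/f (WT), with no treatment beyond crosslinking named in the labels. Being clonal, a line can differ from another by more than its Dicer genotype. The labels do not say how many clones were used, nor whether replicates 1 and 2 of a genotype were separate cultures, so the spread between them may be technical. For each of H3K4me3, H3K36me3 and H3K27me3 there were 2 libraries per genotype, 12 ChIP libraries in all. MSC marker genes were not analysed here, because no gene annotation of the mm9 build was at hand, and positions below are therefore given without gene names or sequence.

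H3K4me3 is a methyl mark on the tail of histone H3 that sits around transcription start sites of active and poised genes, in broad strong blocks at housekeeping and CpG-rich promoters and in weaker, narrower blocks at some enhancers. H3K36me3 is laid down behind elongating RNA polymerase II and marks the bodies of transcribed genes. H3K27me3 is the product of Polycomb repressive complex 2 and marks silenced developmental genes, where it can lie together with H3K4me3. Dicer cuts microRNA precursors into mature microRNAs, among them the let-7 family that the series title names.

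The replicate 2 lists of H3K4me3 were the longer ones in both genotypes, which bears on every count of listed and unlisted regions. On chromosomes 1 to 19 the KO libraries listed 16267 and 23215 peaks over 31.5 and 51.3 Mb, and the WT libraries 12314 and 17755 peaks over 24.3 and 42.8 Mb. KO replicate 1 of H3K27me3 stood apart with 698 peaks, against 17471 in KO replicate 2 and 2533 and 14523 in WT. The lists hold no read counts, so depth is unknown. A region without a listed peak can hold signal under the authors' threshold, and the part of list length in the results was not tested.

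Listing in both KO libraries alone was the fifth most frequent pattern. Regions listed in all 4 libraries numbered 10768, those listed in KO replicate 2 alone 5100, those in replicate 2 of both genotypes alone 2654, and those in both KO libraries and WT replicate 2 numbered 2543. The reverse of the KO-only pattern, both WT libraries and neither KO library, held 65 regions, called WT-only below. KO replicate 1 alone listed 295 regions. The KO-only count rose to 6665 when KO replicate 1 was left out and to 4105 when WT replicate 2 was left out, but only to 1874 without KO replicate 2 and to 1571 without WT replicate 1. The rule was therefore bound mainly by the shorter KO list and the longer WT list.

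**Figure D1:**
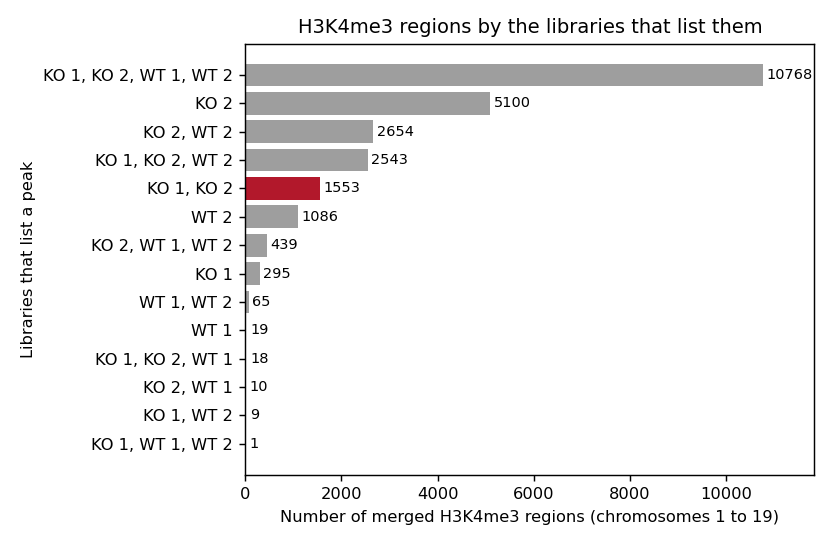
Number of merged H3K4me3 regions (horizontal axis) for each combination of libraries that lists a peak (vertical axis). The red bar marks the 1553 KO-only regions, which lies between the 2543 regions that WT replicate 2 lists as well and the 1086 listed in WT replicate 2 alone.

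KO-only regions were narrow, and nearly all held a single peak per KO list. Their width had a median of 1309 bp (quartiles 1107 and 1615 bp), with extremes of 515 and 5203 bp, against a median of 1849 bp over all regions and 2998 bp over regions listed in all 4 libraries. Widths of 1000 to 1500 bp were found in 856 regions (55.1%, against 24.5% of all regions) and widths of 3000 bp or more in 22 (1.42%, against 23.4%). Widths under 1000 bp, found in 207 (13.3%), were no more frequent than over all regions (14.2%). In all, 1546 of the 1553 regions were made of a single peak in each KO list. Together they spanned 2.21 Mb, 4.0% of the 55.3 Mb spanned by all H3K4me3 regions. Both KO libraries placed their peaks on the same bases: the shared length was at least 454 bp in every KO-only region and had a median of 970 bp. KO replicate 2 covered a median of 1268 bp per region and KO replicate 1 a median of 1016 bp, and KO replicate 2 covered more in 1309 regions (84.3%). Peaks of the whole KO replicate 2 list were also wider, with a median of 1838 bp against 1775 bp in KO replicate 1. The counts of single peaks and of covered length were not set against other regions here.

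Regions with other listings bracketed these widths. Those listed in replicate 2 of both genotypes alone had a median of 1404.5 bp and those listed in KO replicate 2 alone 1049 bp. The 65 WT-only regions were wider, with a median of 1853 bp, and 10 of them (15.4%) reached 3000 bp. Because the lists that chose the regions also set their widths, these values are descriptions and no test was made of them.

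**Figure D2:**
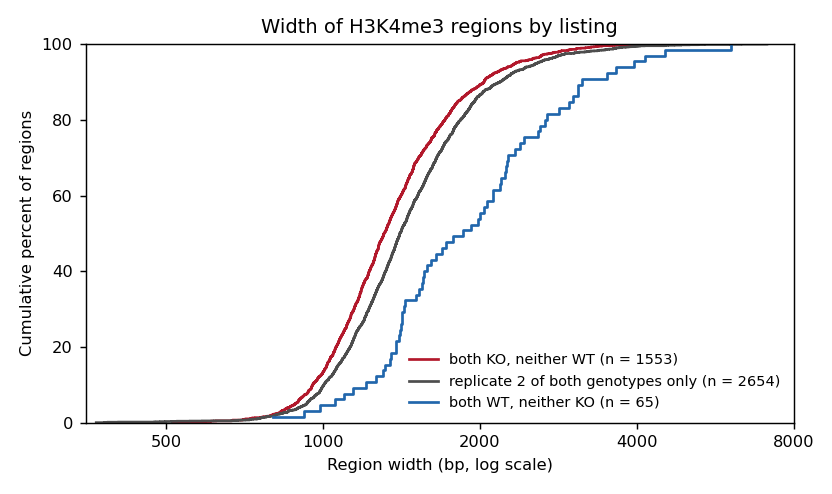
Cumulative percent of regions (vertical axis) by region width in bp (horizontal axis, log scale) for 3 listing patterns. The KO-only curve (red, median 1309 bp) runs just left of the curve for regions listed in replicate 2 of both genotypes alone (dark grey, 1404.5 bp), and the WT-only curve (blue, 1853 bp) lies to the right.

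By score, the KO-only regions belonged to the weaker part of both KO lists. The score is the authors' value per peak, at least 80 in every list and 3100 or more for the strongest 41.6% and 43.8% of peaks in KO replicates 1 and 2, and it is used here only to rank peaks within a list. The strongest peak of a KO-only region had a median score of 161 in KO replicate 1 and of 367 in KO replicate 2. As percentiles of each list, counted from the weakest peak, these medians were 13.2 and 29.9. In KO replicate 1, 1103 of the 1553 regions were in the lowest 20% of the list, and in KO replicate 2 this held for 400. A score of 3100 or more was reached by 3 regions in KO replicate 1, by 11 in KO replicate 2 and by none in both. Scores of at least 160 in both KO lists were found for 719 regions (46.3%) and of at least 1000 for 30. Across the 1553 regions the percentiles in the 2 KO lists had a Spearman rho of 0.47, and width and mean percentile one of 0.61. These are descriptions over regions chosen from the same lists.

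**Figure D3:**
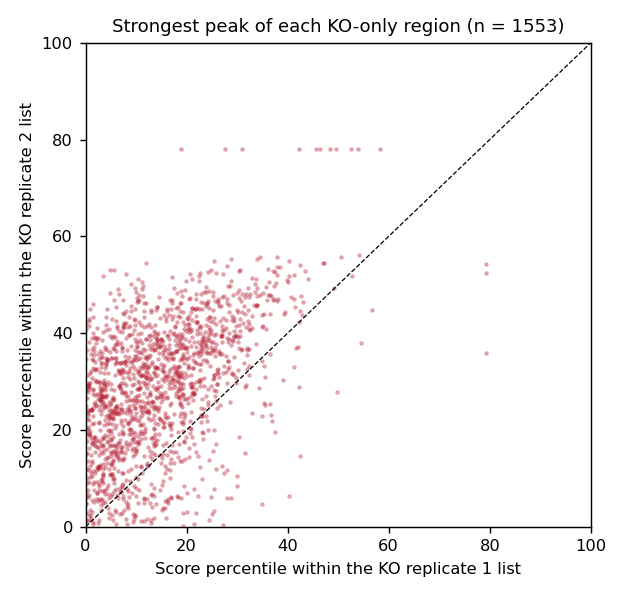
Each point is 1 of the 1553 KO-only regions, placed by the score percentile of its strongest peak in the KO replicate 1 list (horizontal axis, percent) and in the KO replicate 2 list (vertical axis, percent), and the dashed line marks equal percentiles. Most points lie above the line, 1372 in all, and the 11 regions in a row near the top share the tied highest scores of KO replicate 2, at percentile 78.1.

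The 10 highest-ranked KO-only regions, by the mean of the 2 percentiles, were between 2210 and 4007 bp wide. The first was chr11:54773913-54776868, covered over 2590 and 2822 bp in KO replicates 1 and 2, with scores of 3088 and 3100. Next came chr15:41582699-41586044, covered over 3264 and 3232 bp and scored 3100 and 2501. The region at chr2:118998597-119002603 was covered over 3972 and 3918 bp, nearly its whole 4007 bp, in both KO libraries. Of the remainder, chr1:90404191-90407256 had the highest KO replicate 1 score of all KO-only regions, 3126. The other 6 were chr5:150443588-150446339, chr17:13818695-13821748, chr3:144634056-144636337, chr5:136145058-136147754, chr5:58968557-58970766 and chr12:86229781-86232029. All 6 had a score of 3100 in KO replicate 2, and their KO replicate 1 scores ran from 1274 to 2410. All 10 also held a peak in both KO difference lists, a second kind of deposited list read here as peaks of a library against the other genotype.

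The leading regions differed in what surrounded them. At chr5:150443588-150446339 a strong H3K4me3 region lay 3077 bp away and H3K36me3 within 10 kb spanned 3649 and 3841 bp for KO replicates 1 and 2, with 3799 and 3707 bp for their WT counterparts, about the same length in all 4 libraries. At chr1:90404191-90407256 H3K36me3 covered 7240 bp in KO replicate 1 and was not listed in the other 3 libraries. The chr2:118998597-119002603 region had 1175 and 937 bp of H3K36me3 in KO and none listed in WT. By contrast, chr5:58968557-58970766 was 4575 kb from the nearest strong H3K4me3 region and had neither H3K36me3 nor H3K27me3 listed within 10 kb in any library. None of the 10 had H3K27me3 listed within 10 kb.

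The 5 widest KO-only regions included chr2:118998597-119002603 again. The widest was chr16:43698080-43703282, 5203 bp, of which 4270 and 5203 bp were covered in the KO libraries. It lay 185 kb from the nearest WT peak of H3K4me3 and had no peak of the other marks within 10 kb. The others were chr8:113310384-113314700, chr1:127573099-127577074 and chr1:153530942-153534728, with the nearest WT peak of H3K4me3 at 1237, 113876 and 66586 bp. In the last, KO replicate 1 covered 1737 of 3787 bp with a score of 121, so most of its width came from KO replicate 2.

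The rule has a threshold, since a peak is listed only from a score of 80 upwards. Just inside it, chr6:136559885-136561068 scored 80.01 in KO replicate 1 and 275.81 in KO replicate 2, and in all 311 KO-only regions (20.03%) had a score below 100 in at least 1 KO list. Just outside it, chr1:99698612-99699716 scored 171.07 and 563.55 in the KO lists but also held a WT replicate 2 peak of 80.23. Of the 2543 regions listed in both KO libraries and WT replicate 2, 148 (5.82%) had a WT score below 100. The nearest WT peak to a KO-only region was 139 bp away, at chr17:21609760-21611442. When only peaks of at least 160 were counted in the KO lists, 719 regions met the rule, and when this limit was set in all 4 lists 1009 did, because weak WT peaks then no longer removed a region.

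The difference lists come from the same contrast as the rule and are given as a description. A peak of the KO replicate 1 difference list lay in 1359 KO-only regions (87.5%), against 21% of all regions. For KO replicate 2 this was 1335 (86.0%), against 24.1%. Both lists had a peak in 1232 (79.3%), against 11% of all regions, and neither had one in 91 (5.86%, against 66.0%). The share in both lists was 11.9% for regions listed in KO replicate 2 alone and 10.8% for KO replicate 1 alone. It was 27.1% for regions listed in both KO libraries and WT replicate 2. No KO-only region held a peak of a WT difference list, against 10.5% of all regions. The share in both lists was 27.6% among the regions chosen without KO replicate 1 and 46.8% among those chosen without WT replicate 2. The 91 regions in neither list were weaker, with median scores of 124 and 262, against 183 and 417 in the 1232 regions in both.

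KO-only regions were seldom next to strong H3K4me3. A strong region was one listed in all 4 libraries with a score of 3100 or more in each, and there were 4868. The distance from a KO-only region to the nearest of them, edge to edge, had a median of 95.8 kb (quartiles 36.3 and 274 kb). It was at most 1 kb for 11 regions (0.708%), at most 10 kb for 126 (8.11%) and beyond 100 kb for 762 (49.1%). Over all regions, which include the strong ones, these shares were 20.6%, 27.1% and 37.5%, and the median was 55.9 kb. A strong region lies at distance 0 from itself, and a KO-only region cannot overlap one by the rule. The contrast with all regions is thus partly set in advance. Regions listed in KO replicate 2 alone were near the KO-only regions, with 0.961%, 8.73% and 48.0% and a median of 92.8 kb. With every region listed in all 4 libraries taken as strong, the KO-only median was 45 kb. The nearest WT peak of any strength had a median distance of 27.1 kb. It lay within 1000 bp of 38 KO-only regions (2.45%) and beyond 100 kb of 299 (19.3%).

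In the middle of the distribution these distances were near those of regions listed in replicate 2 of both genotypes alone, which had a median of 100 kb, with 7.84% at most 10 kb and 50.1% beyond 100 kb. The curves parted in the far tail. Distances beyond 1 Mb were found for 136 KO-only regions (8.76%), 79 regions listed in replicate 2 of both genotypes alone (2.98%), 253 listed in KO replicate 2 alone (4.96%), 45 listed in KO replicate 1 alone (15.3%) and 11 WT-only regions (16.9%). Over all regions the share was 3.73%. These distances rest on the H3K4me3 lists that chose the regions, and no test was made of them.

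**Figure D4:**
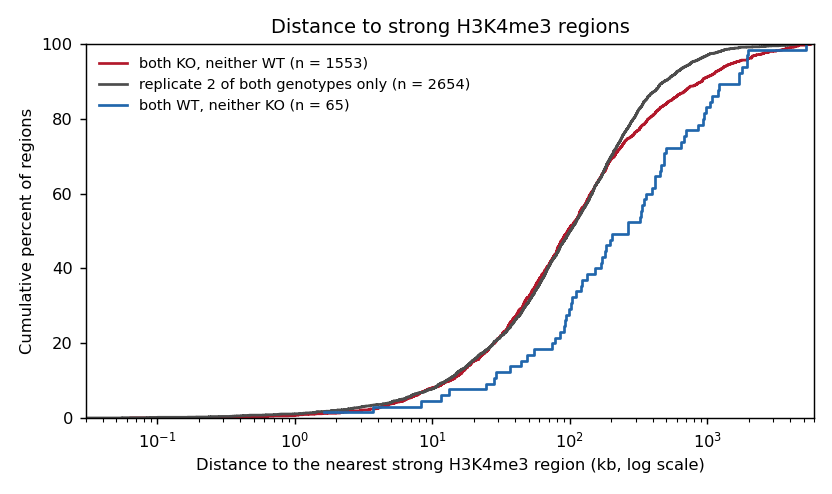
Cumulative percent of regions (vertical axis) by distance to the nearest strong H3K4me3 region in kb (horizontal axis, log scale) for 3 listing patterns. The KO-only curve (red) and the curve for replicate 2 of both genotypes alone (dark grey) share a median near 100 kb and part beyond it, with 8.76% and 2.98% of regions past 1 Mb, and the WT-only curve (blue, 65 regions) lies to the right.

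H3K36me3 and H3K27me3 come from ChIP libraries that the rule did not use. H3K36me3 was listed within 10 kb of 265 and 314 KO-only regions in KO replicates 1 and 2, and of 283 and 408 in WT replicates 1 and 2. As shares these were 17.1% and 20.2% in KO and 18.2% and 26.3% in WT (95% Wilson intervals 15.3 to 19.02%, 18.3 to 22.3%, 16.4 to 20.2% and 24.1 to 28.5%, which cover counting error only). The genotypes overlapped, since KO replicate 2 lay above WT replicate 1. The KO mean minus the WT mean was -3.61 percentage points (exact two-sided permutation p = 0.667, n = 2 per genotype, where 0.33 is the smallest p the design allows), and 0.42 points without WT replicate 2 of H3K36me3, the longest list of that mark. By these shares, no H3K36me3 gain in KO beside the KO-only regions was detectable at this size.

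Against all H3K4me3 regions, KO-only regions were less often near H3K36me3 in every library. All regions gave 32.8% and 38.3% in KO and 37.1% and 46.9% in WT. The mean log2 ratio of the KO-only share to the share over all regions was -0.93 over the 4 libraries (exact two-sided sign-flip permutation p = 0.125, the smallest that 4 libraries allow, Benjamini-Hochberg adjusted p = 0.208 over 10 tests). This ratio was -0.93 in KO and -0.93 in WT, and the difference between genotypes, -0.00098, changed sign without KO replicate 1 (0.010) or WT replicate 2 (0.094) of H3K36me3 and within 50 kb (0.025). Direct overlap was rarer still, with 23 and 38 KO-only regions in KO and 43 and 108 in WT. As shares these were 1.48%, 2.45%, 2.77% and 6.95%, against 8.40%, 10.4%, 10.5% and 18.3% of all regions. The median distance to H3K36me3 was 54.8 and 46.2 kb in the KO libraries, against 52.8 and 37.0 kb for WT.

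A few KO-only regions had H3K36me3 nearby in KO alone. Both KO libraries and neither WT library listed H3K36me3 within 10 kb of 13 regions (0.837%, against 0.354% of all regions), and the reverse held for 29 (1.87%, against 2.69%). In all 4 libraries it was listed near 191 regions (12.3%, against 28.8% of all regions), and in none near 1078 (69.4%, against 50.4%). The regions listed in replicate 2 of both genotypes alone gave 11.8% for all 4 and 73.5% for none. They gave 0.151% for both KO libraries and neither WT library, and 1.70% for the reverse. In the replicate 2 lists, 32 KO-only regions (2.06%, against 1.55% of all regions) had it in KO but not WT and 126 (8.11%, against 10.2%) in WT but not KO. In the replicate 1 lists these were 61 (3.93%, against 2.95%) and 79 (5.09%, against 7.25%). By the difference lists of that mark, 13 KO-only regions lay within 10 kb of an H3K36me3 region that was KO-higher in both replicates (0.837%, against 0.582% of all regions) and 8 near a WT-higher one (0.515%, against 1.29%). Among regions listed in replicate 2 of both genotypes alone, KO but not WT held for 1.06% (replicate 2) and 1.39% (replicate 1). WT but not KO held for 7.84% and 4.79%. A KO-higher region lay near 0.188% of them and a WT-higher one near 1.21%. These gaps between classes were not tested.

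The 5 regions with the longest H3K36me3 in both KO libraries and none in WT lay on 4 chromosomes. At chr16:25384613-25387210, H3K36me3 spanned 9001 bp in KO replicate 1 and 6534 bp in KO replicate 2, and the region had H3K4me3 scores of 775 and 743. At chr16:43663216-43665295 H3K36me3 covered 8694 and 2013 bp. Less than 100 kb lay between this region and the widest KO-only region, chr16:43698080-43703282. At chr12:9903747-9905591 the lengths were 9712 and 1436 bp. The remaining pair, chr6:17428375-17430140 and chr2:135566511-135569933, had 2179 and 1286 bp, and 1256 and 1917 bp. All 5 held a peak in both H3K4me3 KO difference lists, and the first and the last lay over 1 Mb from strong H3K4me3. The nearest WT peak of H3K4me3 of any strength was 324237 bp from the first but only 2440 bp from the last.

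H3K27me3 was seldom listed near KO-only regions in either genotype. A peak within 10 kb was found for 5 and 131 regions in KO replicates 1 and 2 and for 24 and 112 in WT replicates 1 and 2. The shares were 0.322% and 8.44% in KO and 1.55% and 7.21% in WT (95% Wilson intervals 0.138 to 0.751%, 7.15 to 9.92%, 1.04 to 2.29% and 6.03 to 8.61%). Replicates of a genotype differed more than the genotypes did: both means were 4.38%, a difference of 0 (exact two-sided permutation p = 1, n = 2 per genotype). The difference was 4.06 points without KO replicate 1, -4.06 without KO replicate 2, -2.83 without WT replicate 1 and 2.83 without WT replicate 2 of H3K27me3. Direct overlap was listed for 1 and 12 regions in KO and 8 and 31 in WT, shares of 0.0644%, 0.773%, 0.515% and 1.996%, against 0.574%, 5.63%, 3.36% and 9.05% of all regions.

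KO-only regions were less often near H3K27me3 than H3K4me3 regions as a whole. Over all regions the shares were 1.21% and 15.3% in KO and 5.15% and 17.4% in WT, higher than the KO-only share in 4 of 4 libraries. The mean log2 ratio was -1.44 (exact two-sided sign-flip permutation p = 0.125, the smallest that 4 libraries allow, adjusted p = 0.208 over 10 tests). Set against their own background in this way, the KO libraries were 0.12 higher than the WT libraries on the log2 scale (exact permutation p = 1). This sign turned without KO replicate 2 (-0.41) or without WT replicate 1 (-0.11) of H3K27me3. It also turned when the regions were chosen without H3K4me3 KO replicate 1 (-0.15), KO replicate 2 (-0.13) or WT replicate 2 (-0.07), and with direct overlap in place of 10 kb (-0.57).

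A low H3K27me3 share was not particular to the KO-only regions. Those listed in KO replicate 2 alone had shares of 0.627% and 9.90% in KO and 3.59% and 11.0% in WT. Those listed in KO replicate 1 alone, 295 regions, had 0.339% and 10.5% in KO and 2.03% and 12.5% in WT. The KO-only shares of 0.322%, 8.44%, 1.55% and 7.21% were below both sets in each library but nearer to them than to all regions, and these gaps were not tested. In the KO replicate 1 library, 0.339% stood for 1 of 295 regions and 0.322% for 5 of 1553, so no order can be read there. For H3K36me3 the KO-only shares lay between the 2 sets, with 18.04% to 29.0% near regions of KO replicate 2 alone and 8.47% to 15.3% near those of KO replicate 1 alone.

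**Figure D5:**
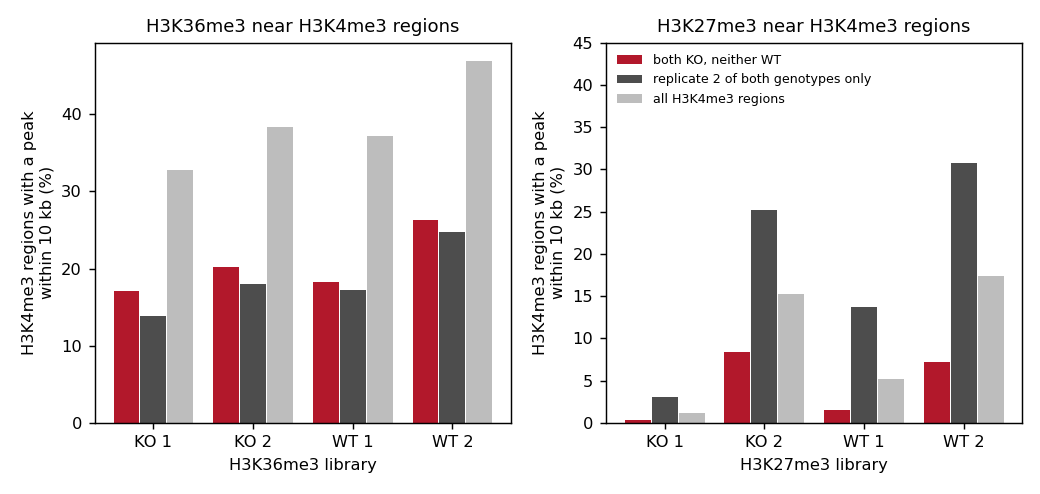
Percent of H3K4me3 regions with a listed peak of H3K36me3 (left) or H3K27me3 (right) within 10 kb (vertical axes) in each library of that mark (horizontal axes), for KO-only regions (red), regions listed in replicate 2 of both genotypes alone (dark grey) and all H3K4me3 regions (light grey). For H3K27me3 the red bars are the lowest in all 4 libraries, at 0.322% to 8.44%, while for H3K36me3 red and dark grey bars lie close together.

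Regions listed in replicate 2 of both genotypes alone were near the KO-only regions in KO replicate 2 score (median 378, against 367) and width, but were richer in H3K27me3 than H3K4me3 regions as a whole. H3K27me3 was listed within 10 kb of 3.05% and 25.2% of them in KO and of 13.7% and 30.7% in WT. The KO-only share was lower in 4 of 4 libraries, with a mean log2 ratio of -2.52 (exact two-sided sign-flip permutation p = 0.125, adjusted p = 0.208 over 10 tests). The ratio was -4.23 for direct overlap and -1.08 within 50 kb. Among regions with KO replicate 2 scores of 200 to 400 the replicate 2 shares were 6.91% in KO and 7.13% in WT for KO-only regions, and 21.3% and 25.4% for the others. From 800 upwards they were 9.09% and 6.82%, and 38.1% and 47.8%. The ratio was thus negative at every range of score examined, from -1.52 at 80 to 200 to -3.24 at 800 upwards.

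H3K36me3 separated these groups little. Its shares near regions listed in replicate 2 of both genotypes alone were 13.8% and 17.9% in KO and 17.2% and 24.7% in WT, each below the KO-only share, with a mean log2 ratio of 0.16 (exact two-sided sign-flip permutation p = 0.125, adjusted p = 0.208 over 10 tests). By library the log2 ratio was 0.307 and 0.173 in KO replicates 1 and 2, and 0.085 and 0.088 in WT replicates 1 and 2. Both KO values thus lay above both WT values, and this difference between genotypes was not tested. The mean ratio turned to -0.07 with direct overlap and to -0.56 among regions with KO replicate 2 scores of 80 to 200. It was 0.60 among those scored 800 upwards, so its direction depended on the strength of the regions compared. Regions that WT replicate 2 listed besides both KO libraries had more of both marks nearby, with 18.7% to 31.6% near H3K36me3 and 1.26% to 15.3% near H3K27me3.

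Where H3K27me3 lay near KO-only regions, the replicate 1 lists named few of them, 5 in KO and 24 in WT. All 24 in WT replicate 1 were among the 112 of WT replicate 2. In the replicate 2 lists it was near 68 regions in both genotypes (4.38%, against 10.5% of all regions), near 63 (4.06%, against 4.71%) in KO but not WT, and near 44 (2.83%, against 6.88%) in WT but not KO. In the replicate 1 lists it was near 2 (0.129%, against 0.35%) in KO but not WT and near 21 (1.35%, against 4.29%) in WT but not KO. The excess thus lay on the KO side in one replicate and on the WT side in the other. Both KO libraries and neither WT library listed it within 10 kb of 1 region (0.0644%, against 0.0651% of all regions), and both WT libraries and neither KO library near 5 (0.322%, against 0.985%). An H3K27me3 region that was WT-higher in both difference lists lay within 10 kb of 22 KO-only regions (1.42%, against 3.75% of all regions, and 8.82% of those listed in replicate 2 of both genotypes alone). A KO-higher one lay near none, against 0.0489% of all regions.

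The 24 regions with H3K27me3 within 10 kb in both WT libraries included some beside long stretches of H3K27me3. The leading region, chr18:81175880-81177250, had 14420 and 15646 bp of H3K27me3 in WT, 14830 bp in KO replicate 2 and none listed in KO replicate 1. At chr2:31495689-31497282 the lengths were 10860 and 21084 bp in WT and 2615 and 19969 bp in KO. In both, KO replicate 2 kept a length close to that of WT replicate 2. In the next pair KO replicate 2 lay between the WT libraries. At chr11:97392858-97393884 the lengths were 7454 and 17879 bp in WT and 10537 bp in KO replicate 2, and at chr19:10531861-10533062 they were 5798 and 17450 bp in WT and 6904 bp in KO replicate 2. At chr13:83872725-83874022 KO replicate 2 had 699 bp, below the 4014 and 12316 bp in WT. KO replicate 1 listed none at these 3 regions. The chr13 region was the only 1 of the 5 not in the KO replicate 1 difference list of H3K4me3. The chr2, chr19 and chr13 regions had KO replicate 1 scores of 124, 81 and 152, so they did not meet the rule with a minimum score of 160.

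Taking both marks and all libraries, 929 KO-only regions (59.8%, against 35.99% of all H3K4me3 regions) had neither mark listed within 10 kb in any library. H3K36me3 alone was near 449 (28.9%, against 41.9%), H3K27me3 alone near 149 (9.59%, against 14.4%) and both near 26 (1.67%, against 7.75%). The regions with neither mark were the farthest from strong H3K4me3, with a median of 151 kb, against 46.6 kb for those with H3K36me3 alone and 89.3 kb for those with H3K27me3 alone. They were also narrower than those with H3K36me3 alone, with median widths of 1261 and 1479 bp. Among the 126 KO-only regions within 10 kb of strong H3K4me3, 46.8% to 65.1% had H3K36me3 nearby over the 4 libraries. Among the 762 beyond 100 kb the range was 6.96% to 12.7%. The score percentile changed little along this distance, with KO replicate 2 medians of 32.2 within 10 kb and 29.2 beyond 100 kb.

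KO-only regions were spread over all 19 chromosomes. Their share of a chromosome's H3K4me3 regions had a median of 6.82% and was highest on chromosome 12, with 81 of 859 (9.43%), and on chromosome 18, with 64 of 737 (8.68%). It was lowest on chromosome 9, with 43 of 1238 (3.47%), and on chromosome 11, with 82 of 1786 (4.59%). Chromosome 12 also had the most WT-only regions, 9 of 65. Regions listed in replicate 2 of both genotypes alone made up 7.68% of the regions on chromosome 12 and 11.6% on chromosome 9. Copy number of the lines was not analysed here, and its part in these shares was not tested.

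Most KO-only regions stood alone. Joined where less than 100 kb lay between them, they formed 1303 groups, of which 1107 held a single region, 149 a pair and 47 a larger number. Gaps under 10 kb separated 3.39% of neighbouring KO-only regions, against 4.36% of neighbours among regions listed in replicate 2 of both genotypes alone. Gaps under 100 kb made up 16.3% and 23.4%. The second set is larger, 2654 against 1553 regions, and a larger set has shorter gaps by number alone. These shares therefore do not say whether KO-only regions cluster, which was not tested. The largest group, chr1:154938608-155140271, held 5 KO-only regions in 202 kb and no H3K4me3 peak of either WT library. All 5 were in both KO difference lists, and H3K36me3 was listed there in all 4 libraries, over 20120 and 16556 bp in the KO libraries and over 17053 and 29924 bp in the WT libraries. The group at chr17:75448035-75511132 held 4 regions in 63.1 kb, likewise with no WT peak of H3K4me3, and no H3K36me3 but 1312 bp in WT replicate 2. Further groups of 4 lay at chr2:63811918-64010987, chr4:98687207-98852644 and chr7:52660291-52817477. These 3 also held regions listed in WT: 1 of 6, which was strong, in the chr2 group, 2 of 6, neither strong, in the chr4 group, and 8 of 14, 4 of them strong, in the chr7 group.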

How the data were processed

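The authors deposited peak lists in BED format with a score per peak, for H3K4me3, H3K36me3 and H3K27me3 in 12 ChIP libraries, 24 lists in all. One list per library was called against whole-cell extract and the other is a difference list. For the latter no control is named, and each was read as a comparison with the opposite genotype at equal mark and replicate number. Per the submitters' processing notes, Bowtie 0.12.7, MACS (version not given) and the mm9 build were used. Read depth and the score's formula are not given in the sources used here, so scores were only ranked within a list, with scores of 3100 or more treated as tied. Replicates were called separately.

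H3K4me3 peaks of chromosomes 1 to 19 that overlapped or touched were merged with Python 3.11.15, numpy 2.4.6 and scipy 1.17.1, and figures were drawn with matplotlib 3.10.9. Coordinates are 1-based. Distances run edge to edge, a mark was near within 10 kb, and overlap needed 1 bp. A strong region had a score of 3100 or more in all 4 libraries, because none had the maximum of every list, as first planned. Genotypes were compared with exact two-sided permutation tests over 2 against 2 libraries, and classes of regions with exact sign-flip tests over 4 libraries. The sign-flip tests read the same regions in each library and pool KO with WT. Their p therefore covers neither the sampling of regions nor the spread between cell lines. The tests between classes, and their split by score, were added after the data were seen. P-values were adjusted by Benjamini-Hochberg over 10 tests. The membership rule and the distances were tested on simulated lists with known answers, and the exact tests were run on small fixed inputs. The other steps were not tested in this way.

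Named regions were the 10 with the highest mean percentile in the KO lists, the 5 widest, the 5 with the longest H3K36me3 in both KO libraries and none in WT, and the 5 with the longest H3K27me3 in both WT libraries. Of groups less than 100 kb apart, 5 of the 6 with 4 or more regions were named, among them the largest. Members and lists were chosen with earlier results of these data known. The 4 whole-cell extract samples, genes, marker genes and sequences were not analysed here. Whether equal replicate numbers pair samples was not stated in the labels. Alternatives changed the score minimum, the merging distance, the window and the libraries used.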

Additional observations from a re-analysis of the deposited data

Results flagged for a closer look

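Chromosome X lay outside the chromosomes analysed and also held regions of the KO-only pattern. Both KO libraries and neither WT library listed 21 of its 644 H3K4me3 regions (3.26%), with a median width of 1207 bp, while 6 showed the reverse pattern and 64 were listed in replicate 2 of both genotypes alone. With chromosome X added, the KO-only count was 1574.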

How the results depend on the processing

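The lists that defined the KO-only regions moved their number most. Leaving out 1 H3K4me3 library gave 1571 to 6665 regions, a median width of 978 to 1516 bp, a median distance to strong H3K4me3 of 70468 to 107077 bp, and 27.6% to 78.9% with peaks in both KO difference lists. A minimum score of 160 left 719 regions when set in the KO lists and 1009 when set in all, 67.1% of the latter in both KO difference lists. Of the 1553 regions 46.3% met the rule under that limit, and 4 of 24 named regions did not. Merging peaks less than 500 bp apart gave 1518 regions and removed 1 named region, chr8:113310384-113314700. The median distance was 45000 bp with every region listed in all 4 libraries taken as strong. Leaving out 1 library moved the KO minus WT difference near H3K36me3 from -7.63 to 0.42 percentage points and near H3K27me3 from -4.06 to 4.06. Against all regions on the log2 scale these ranges were -0.096 to 0.094 and -0.41 to 0.65. The latter turned to -0.57 with direct overlap, and the H3K36me3 value to 0.025 within 50 kb. For H3K27me3 no log2 value against all regions could be had at a minimum score of 160 in all lists, because KO replicate 1 then had none near. The KO minus WT difference was then -0.50 percentage points. The mean log2 ratio of the KO-only share to that of regions listed in replicate 2 of both genotypes alone ran from 0.12 to 0.19 for H3K36me3, with reversals to -0.068 (overlap) and -0.56 (KO replicate 2 scores of 80 to 200). For H3K27me3 it ran from -2.83 to -2.27 and was negative under the other alternatives run. The cause of these changes was not tested. With the replicate number as a block, the differences were -3.61 points (exact permutation p = 0.5) and -0.00098 (exact permutation p = 1) for H3K36me3, and 0 and 0.12 (each exact permutation p = 1) for H3K27me3. With 2 pairs 0.5 is the smallest p, so no call could be made with the block. Depth is unknown, and 2 libraries per genotype cannot reach a p below 0.33.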
